A study of Mus musculus with 69 samples.

Results

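The 10 genes described here are members of the Notch pathway that take part in the segmentation clock or serve it: the ligands Dll1, Dll3 and Jag1, the receptors Notch1 and Notch2, the glycosyltransferase Lfng, the repressors Hes1, Hes7 and Hey1, and the feedback inhibitor Nrarp. They were chosen by symbol, with earlier results of these data known, and each was found once among the 55367 symbols of the count table, 42280 of which had a count. The shares of all genes set beside their counts are a description and not a test of the set. Bulk RNA sequencing covered 69 libraries in 23 conditions with 3 replicates each. Mouse embryonic stem (mES) cells of the line E14tg2A were sequenced at 0 h as separate cultures of 3 clones, which are p53KO–emiRFP and its WT counterparts WT–emiRFP and WT–mCherry. The other libraries hold cells that FACS sorted from mosaic gastruloids, which are aggregates of mES cells that elongate and form germ layer derivatives, at 48, 72, 96, 120 and 144 h. WT + WT gastruloids were seeded from 150 WT–mCherry and 150 WT–emiRFP cells, and WT + p53KO gastruloids from 150 WT–mCherry and 25 p53KO–emiRFP cells. Gastruloids received the Wnt agonist ChIR from 48 to 72 h, so those sampled at 48 h had not been through this treatment. Both labels are histone H2B fusions, mCherry under the EF1α promoter and emiRFP670 under the CAG promoter. The p53KO–emiRFP line is 1 subclone of WT–emiRFP, selected with Nutlin-3a, with a frameshift on both alleles of Trp53, so clone and genotype cannot be told apart in its comparison.

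Notch ligands on a cell bind Notch receptors on its neighbour, the receptor is cut, and its intracellular domain enters the nucleus and activates target genes with the DNA-binding protein RBPJ. In the presomitic mesoderm, the unsegmented tissue that gives rise to the somites, this pathway drives a clock: Hes7 represses its own transcription and that of Lfng in cycles, and Dll1, Dll3, Nrarp, Hes1 and Hey genes take part in the same network. Wnt and FGF signalling keep the tissue unsegmented and have cyclic targets of their own. A library pools the cells of several gastruloids, so it gives the mean level of a gene over clock phases and not a cycle.

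Total counts ranged from 26722541 to 72981570 per library, with a median of 53098728. Normalised read counts are counts divided by median-of-ratios size factors of all 69 libraries. Trp53 checked the labels: its mean in p53KO–emiRFP cells was 8.33 to 11.4% of that in WT–emiRFP cells at the 6 time points. The purity of the sorted cells was not checked by the study after FACS. H2bc14 and H2bc21, histone H2B genes with high counts in cells of the emiRFP clones and low counts in WT–mCherry mES cells, gave an estimate of the RNA of emiRFP cells in WT–mCherry libraries, and the estimate is given with the neighbour comparisons at 120 and 144 h. The replicates came from 3 experiments on different dates. The adjusted p values are from edgeR's quasi-likelihood test, with the Benjamini-Hochberg adjustment over all genes tested and a threshold of 0.05. Where same-numbered libraries deviated together, values with a block for the replicate number are quoted where the block changes the call of a member. Differences are log2 fold changes (log2FC) with their standard error (SE). Hes7 had too few counts to be tested at 0 h.

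The promoters of Hes7, Lfng and Nrarp are shown because these 3 genes act in the feedback of the clock. Of the 10 genes, 8 had RefSeq promoter windows on GRCm38.p6, 9 windows in all. The stretches run 5′ to 3′ on the gene's strand up to the base before the first annotated transcript. Capitals mark the RBPJ core TGGGAA and the N box CACNAG, a site that Hes repressors are known to bind, on either strand. None of the marked sites overlap. The Hes7 stretch is chr11:69120203-69120403 (plus strand), the Lfng stretch chr5:140607091-140607319 (plus strand) and the Nrarp stretch chr2:25180508-25180757 (plus strand).
Hes7: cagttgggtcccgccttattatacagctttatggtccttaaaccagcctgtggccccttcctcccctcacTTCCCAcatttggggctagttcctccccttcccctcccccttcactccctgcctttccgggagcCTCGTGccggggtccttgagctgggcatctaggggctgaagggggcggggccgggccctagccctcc
Lfng: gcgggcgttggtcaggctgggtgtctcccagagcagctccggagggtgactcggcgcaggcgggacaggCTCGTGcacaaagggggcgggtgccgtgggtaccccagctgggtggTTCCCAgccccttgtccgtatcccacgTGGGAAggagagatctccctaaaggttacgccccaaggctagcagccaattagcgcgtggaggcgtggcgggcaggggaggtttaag
Nrarp: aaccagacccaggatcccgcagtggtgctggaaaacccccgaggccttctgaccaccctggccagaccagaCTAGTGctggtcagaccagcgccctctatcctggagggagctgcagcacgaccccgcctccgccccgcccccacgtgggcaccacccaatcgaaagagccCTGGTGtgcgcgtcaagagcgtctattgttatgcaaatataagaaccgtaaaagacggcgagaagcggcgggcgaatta

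In the 250 bases before the RefSeq start, the RBPJ core was found in 2 of the 9 windows, those of Hes7 and Lfng, against 21.6% of 32851 windows of the same length. The N box was found in 5 of the 9 windows, against 36.7%. The T-box motif GGTGTGA and the TCF/LEF core CTTTGAT were in none of the 9, and in 3.33% and 3.21% of all windows. These matches describe the letters of the windows and nothing more. In the Gencode annotation of GRCm38 (vM21), Hes7 lies at chr11:69120404-69124055, Lfng at chr5:140607320-140615545, Nrarp at chr2:25180758-25183339, Dll1 at chr17:15367354-15376872 and Dll3 at chr7:28293553-28302238. Hes7, Nrarp, Dll1 and Notch1 each overlap a gene on the opposite strand. The library kit was stranded, but which strand column was counted is not given in the sources used here, so reads of these genes and of their partners may not be separated.

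Hes7, Lfng and Dll1 had their steepest rise between 72 and 96 h. Across the mean of the 3 WT populations, 8 of the 10 genes were higher and 1 was lower at 96 h than at 72 h, in a step in which 58.6% of all 21132 genes tested changed. Hes7, the repressor at the core of the mouse clock, had 35.4, 13.2 and 32.7 normalised read counts in the WT–emiRFP replicates at 72 h. At 96 h it had 1999, 2306 and 2703. The groups did not overlap, and the WT change was a log2FC of 6.71 (SE 0.15, edgeR adjusted p = 3.4e-41), or 105-fold. The p53KO–emiRFP cells showed the same jump, from 38.6, 26.7 and 35.8 to 2174, 1815 and 2812. Lfng, which adds N-acetylglucosamine to Notch receptors and so changes which ligands they answer to, went from 56.1, 71.9 and 63.3 to 1918, 2133 and 2835 in the WT–emiRFP libraries. Its WT change was 5.05 (SE 0.13, edgeR adjusted p = 5.1e-39) on the log2 scale. Dll1, the main activating ligand of the presomitic mesoderm, had 727, 663 and 638 normalised read counts at 72 h and 20120.5, 19181 and 27879 at 96 h, and its WT change was 4.89 (SE 0.10, edgeR adjusted p = 1.5e-42).

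Other members rose by less in this step. The WT changes were 2.57 for Nrarp, 2.11 for Dll3, a ligand that stays inside the cell and damps Notch signalling, 2.01 for Notch1, 1.58 for Hey1 and 0.32 for Jag1 (log2 scale, SE 0.07 to 0.12). Notch2 was lower by a small amount, −0.18 (SE 0.06, edgeR adjusted p = 0.0070). Without replicate 1 or 2 no member was called lower in this step, and without replicate 3 there were 2. Hes1, a Notch and FGF target expressed in many tissues, did not pass the test, with −0.11 (SE 0.07, edgeR adjusted p = 0.22). Its rise came a day earlier: from 48 to 72 h, the interval of the ChIR treatment, Hes1 changed by 1.75 (SE 0.08, edgeR adjusted p = 1.4e-27), and its WT–emiRFP replicates went from 689, 730.2 and 746 to 2498, 2773 and 1956 normalised read counts. In that step 5 members rose (Hes1, Hes7, Nrarp, Dll3 and Jag1) and 3 fell (Dll1, Lfng and Notch2), where 66.9% of all genes changed. When any 1 replicate was left out, 2 were called lower. From 0 to 48 h 5 rose (Dll3, Dll1, Notch2, Hey1 and Nrarp) and 4 fell (Lfng, Jag1, Hes1 and Notch1), and the share of all genes was 70.3%. The largest were Dll3, 2.08 (SE 0.12, edgeR adjusted p = 3.7e-23), and Lfng, −1.55 (SE 0.13, edgeR adjusted p = 1.2e-15). In mES cells Notch1, Notch2 and Jag1 were well detected, with 3327 ± 406, 2181 ± 385 and 1526 ± 200.2 normalised read counts in the WT–emiRFP clone (SD, n = 3), while Nrarp had 27.2 ± 1.19 and Hes7 4.98 ± 1.64.

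After 96 h most members fell in the mean of the WT populations. From 96 to 120 h 6 members fell and 2 rose, with 56.8% of all genes changed, and from 120 to 144 h all 10 fell, with 55.4%. Hes7 in WT–emiRFP cells was 371, 257 and 336 at 120 h and 7.46, 7.32 and 6.09 at 144 h, the latter from 7 to 8 reads per library. The mean at 120 h was 13.7% of that at 96 h. Its WT changes were −2.05 and −5.15 for the 2 steps (SE 0.10 and 0.16, edgeR adjusted p = 1.5e-24 and 7.2e-33). The WT fall of Dll3 was −1.76 and then −3.17, and that of Dll1 −1.34 and then −1.81. Hey1 and Notch2 were the 2 that rose from 96 to 120 h, by 1.46 (edgeR adjusted p = 7.9e-25) and 0.65 (edgeR adjusted p = 2.1e-14). In bulk samples fewer cells of a type and less RNA per cell cannot be told apart. The mean of the WT populations includes WT–mCherry cells beside p53KO cells, in which the means at 120 h were above those at 96 h for 7 members, among them Lfng (172% of the 96 h mean), Nrarp (149%) and Notch1 (125%). Presomitic markers moved in these steps: 5 of 6 rose from 72 to 96 h (median log2 fold change 3.88), 4 fell and 2 rose from 96 to 120 h (median −1.48), and all 6 fell from 120 to 144 h (median −3.85). Of 7 somite markers 3 rose and 1 fell, then 7 rose, then 2 rose and 4 fell. Of 10 neural markers 6, 7 and 9 rose in the 3 steps, and of 7 endothelial markers 4, 6 and 6. Naive pluripotency markers summed to medians of 53348, 36436, 70824 and 85699 in WT–emiRFP libraries at 72, 96, 120 and 144 h. In WT–mCherry libraries these were 58269, 44401, 52877 and 62892 beside WT and 55446, 35212, 43594 and 65144 beside p53KO cells. In p53KO–emiRFP libraries they were 49836, 22121, 12307 and 15484. The part of all these markers in the changes of the Notch genes was not tested.

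**Figure D1:**
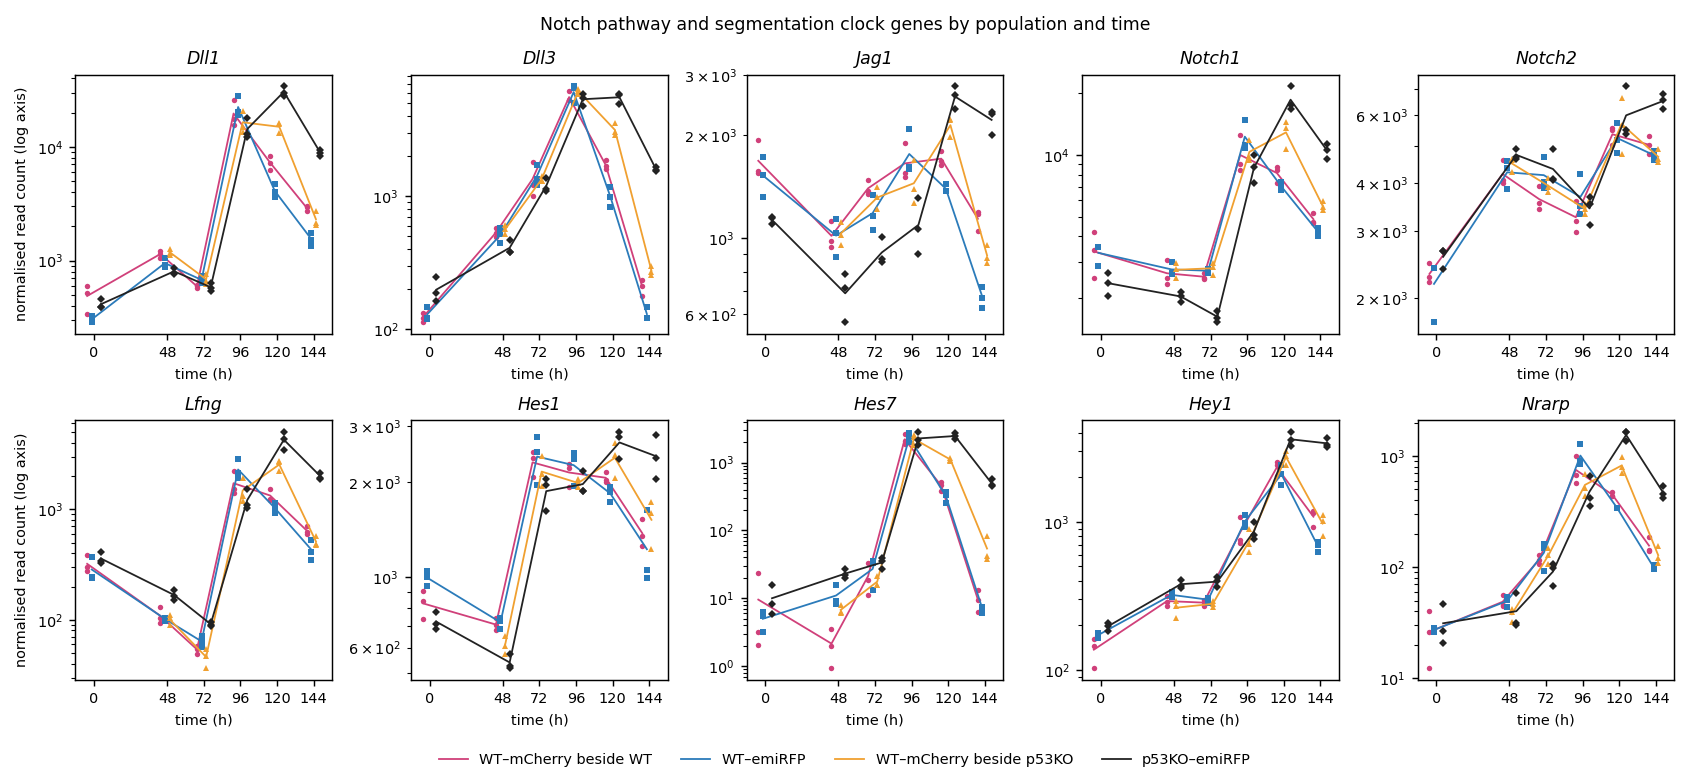
Normalised read count (log axis) of each gene by time in h. Points are libraries, lines join the means of 3 replicates, and points at 0 h are mES cell cultures. Hes7, Lfng and Dll1 jump at 96 h in every population, and at 120 and 144 h the p53KO–emiRFP points lie above those of WT–emiRFP for every gene but Notch2, whose groups overlap at 120 h.

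Levels of different genes were compared per kilobase of annotated exon, taken as the union of the exons of all annotated transcripts. This union can be longer than the transcript expressed (it is 14232 bases for Notch1), so the order depends on the annotation. In WT–emiRFP cells at 96 h the order of mean normalised read counts per kilobase was Dll1 (5308), Dll3 (2136), Hes7 (1291), Hes1 (1111), Lfng (916), Notch1 (863), Nrarp (391), Notch2 (341), Hey1 (308) and Jag1 (302). Dll1 stood above Dll3, Dll3 above Hes7, Hes1 above Lfng and Notch1 above Nrarp by more than the SD of either gene, and the other neighbours in this order lay within the larger of their SDs. The gap between Hes1 and Lfng was close to that limit, with SDs of 139 and 191 per kilobase. In p53KO–emiRFP cells at 120 h Dll1 was again first, with 7222 per kilobase, followed by Dll3 (1952), Lfng (1704), Hes7 (1362) and Hes1 (1311).

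The comparison of p53KO–emiRFP with WT–emiRFP cells asks how the p53KO clone differed from the WT line it came from. Genotype, clone and, from 48 h, the kind of gastruloid, seeded with 25 or 150 emiRFP cells, cannot be told apart in it. Up to 96 h most differences that passed were negative. In mES cells 2 of 9 tested members were lower in p53KO–emiRFP, Hes1 and Jag1, with 6.13% of all genes called. At 48 h 2 were higher, Hes7 (18 to 22 reads per library against 7 to 14) and Lfng, and 5 lower, Dll1, Dll3, Hes1, Jag1 and Notch1 (22.0% of all genes). At 72 h 2 were higher, Hey1 and Lfng, and 3 lower, Hes1, Jag1 and Notch1 (29.1%). Naive pluripotency markers summed to 179347 to 186532 in p53KO–emiRFP and 213061 to 218998 in WT–emiRFP mES cells. At 48 h the sums were 37023 to 41409 and 38170 to 40723, and at 72 h 47415 to 50742 and 48434 to 56025, ranges that overlap. The part of tissue markers in the Notch differences at these times was not tested. Jag1, a ligand of both receptors, was lower at each of the 4 time points from 0 to 96 h, with log2 fold changes of −0.43, −0.56, −0.38 and −0.68. At 48 h its replicates were 570.3, 716 and 787 normalised read counts in p53KO–emiRFP and 1035, 880.4 and 1140.4 in WT–emiRFP cells (edgeR adjusted p = 0.0026). Notch1 was lower at 48, 72 and 96 h, most at 72 h, where it had 1529, 1602 and 1733 against 2666, 2717 and 2781, a log2FC of −0.75 (SE 0.06, edgeR adjusted p = 5.9e-07). Lfng went the other way at these low levels: it was higher in p53KO–emiRFP cells at 48 h (168 ± 17.4 against 102 ± 3.52, SD, n = 3 each, edgeR adjusted p = 0.0018) and at 72 h (91.3 ± 4.15 against 63.8 ± 7.93, edgeR adjusted p = 0.026). With the replicate block, Dll3 at 0 h (edgeR adjusted p = 0.048), Hey1 and Notch2 at 48 h (0.023 and 0.00072) and Nrarp at 72 h (0.017) also passed the threshold, in fits that called 1799 of 18323, 7262 of 17686 and 6900 of 17714 genes. These calls rested on few libraries: at 0 h 5 members were called without replicate 1 and 0 without replicate 2 or 3, at 48 h 2, 5 and 4 without replicates 1, 2 and 3, and at 72 h 3, 1 and 5. In the same order, the 1123, 3899 and 5147 genes called in all became 1824, 248 and 447, then 1769, 1984 and 2759, then 2637, 2855 and 4297.

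At 96 h, after the rise of Hes7, Lfng and Dll1, 5 members were lower in p53KO–emiRFP cells and none was higher, with 23.3% of all genes called. These were Nrarp, Lfng, Jag1, Dll1 and Notch1. Tissue markers moved in the same comparison: of those tested, 4 of 5 presomitic, 2 of 5 somite, 3 of 6 endothelial and 5 of 6 naive pluripotency markers were lower, and 3 of 8 neural, 2 of 5 endoderm, 1 of 5 cardiac and lateral plate and 1 endothelial marker were higher, with 1 endoderm marker lower. Their part in the Notch differences was not tested. Nrarp, which binds the Notch intracellular domain and promotes its loss, had 419, 358 and 659 normalised read counts in p53KO–emiRFP and 845, 907 and 1275 in WT–emiRFP cells, a log2FC of −1.07 (SE 0.25, edgeR adjusted p = 0.0058). Lfng had 1028, 1102 and 1518 and 1918, 2133 and 2835, a log2FC of −0.91 (SE 0.21, edgeR adjusted p = 0.0058). For both genes all p53KO–emiRFP replicates lay below all WT–emiRFP replicates. Dll1 was lower as well, 14341 ± 3022 against 22393 ± 4774 (SD, n = 3 each), a log2FC of −0.64 (SE 0.21, edgeR adjusted p = 0.036). Hes7 had 2174, 1815 and 2812 and 1999, 2306 and 2703, groups that overlapped, and its difference was −0.04 (SE 0.16, edgeR adjusted p = 0.89). With the replicate block 8 members were lower, the former 5 with Dll3, Hes1 and Hey1, with edgeR adjusted p up to 0.0095, where 7078 of 18343 genes were called. Without replicate 1 none was called (edgeR adjusted p from 0.071 for Lfng among these 5), without replicate 2 there were 3, and without replicate 3 there were 6. Of all genes 4267 were called, which became 1848, 2921 and 3462 without replicates 1, 2 and 3.

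At 120 h the direction turned. Of the 10 genes 9 were higher in p53KO–emiRFP cells and none was lower, where 51.0% of 18860 genes were called in either direction. The median log2 fold change of the 10 was 1.73, and that of all genes tested 0.05. Among the ligands, Dll1 had 27784, 29575 and 34049.9 normalised read counts in the p53KO–emiRFP replicates and 4698, 3637 and 3969 in the WT–emiRFP replicates. The groups were far apart, and Dll1 differed by a log2FC of 2.89 (SE 0.13, edgeR adjusted p = 5.9e-10), or 7.43-fold. Dll3 had 4955, 5824 and 5909 and 1174, 833 and 988, a log2FC of 2.48 (SE 0.12, edgeR adjusted p = 1.5e-09). In p53KO–emiRFP cells the Dll3 mean was 104% of its mean at 96 h, and in WT–emiRFP cells 16.4%. Jag1, the ligand that had been lower until 96 h, was now higher, with 2386, 2615 and 2777 against 1440.0, 1370.4 and 1376, a log2FC of 0.89 (SE 0.07, edgeR adjusted p = 1.7e-07).

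Of the receptors, Notch1, the receptor of the clock, had 16759, 17462 and 21650.0 normalised read counts in p53KO–emiRFP and 6888, 6765 and 7373 in WT–emiRFP cells at 120 h, a log2FC of 1.41 (SE 0.12, edgeR adjusted p = 2.4e-07). Notch2 was the member that did not pass the test. Its values were 5479, 5369 and 7133 and 4791, 5182 and 5724, which overlap, and its difference was 0.20 (SE 0.12, edgeR adjusted p = 0.20), while the block gave 0.024. The glycosyltransferase Lfng had 3455, 4349 and 5005 against 1149.5, 929 and 1009, a log2FC of 2.05 (SE 0.14, edgeR adjusted p = 3.0e-08). In p53KO–emiRFP cells the mean of Lfng at 120 h was 351% of that at 96 h.

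The effectors differed in size. Hes7 had 2245, 2709.8 and 2438 normalised read counts in p53KO–emiRFP cells, near its values at 96 h, and 371, 257 and 336 in WT–emiRFP cells, a log2FC of 2.94 (SE 0.13, edgeR adjusted p = 7.8e-10), or 7.68-fold. Hey1, a repressor found in somites and in vessels, was higher by 0.78 (SE 0.12, edgeR adjusted p = 7.0e-05). Hes1 had the smallest of the 9 differences, 2771, 2878 and 2361 against 1929, 1865 and 1734, a log2FC of 0.54 (SE 0.09, edgeR adjusted p = 0.00026). The feedback inhibitor Nrarp had 1366, 1635 and 1642 and 339.7, 342 and 344, a log2FC of 2.18 (SE 0.11, edgeR adjusted p = 3.5e-09). The groups of Hes7, Hes1, Hey1 and Nrarp did not overlap. In p53KO–emiRFP cells 120 h was the time of the highest mean for every member but Notch2, whose highest mean was at 144 h. In WT–emiRFP cells 96 h was that time for 7 members, 72 h for Hes1, and 120 h for Hey1 and Notch2.

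At 144 h all 10 members were higher in p53KO–emiRFP cells, where 65.3% of 19431 genes were called, and their median log2 fold change was 2.23 against 0.01 for all genes. Hes7 had 453, 468 and 564 normalised read counts in p53KO–emiRFP and 7.46, 7.32 and 6.09 in WT–emiRFP cells, a difference of 6.14 (SE 0.32, edgeR adjusted p = 2.0e-09), or 70.3-fold. The WT–emiRFP values rest on 7 to 8 reads per library, so the size of this fold is imprecise. The p53KO–emiRFP mean of Hes7 was 20.1% of that at 120 h, so expression went down in both populations and further in WT–emiRFP. Dll3 had 1570.1, 1561 and 1665 and 147, 121 and 123, a difference of 3.61 (SE 0.12, edgeR adjusted p = 7.8e-11). Hey1 kept 93.8% of its 120 h mean in p53KO–emiRFP cells, against 32.6% in the WT clone. At 144 h it had 3684, 3178 and 3287 and 697, 726 and 625, a difference of 2.31 (SE 0.12, edgeR adjusted p = 2.2e-09). The ligand Jag1 had 2312, 2331 and 2006 and 721, 628 and 672, a difference of 1.72 (SE 0.09, edgeR adjusted p = 1.2e-09). Nrarp, with 542, 459 and 423 and 105, 98.3 and 95.6, differed by 2.25 (SE 0.16, edgeR adjusted p = 3.2e-08). The remaining differences ran from 0.47 for Notch2 and 0.98 for Hes1 to 2.52 for Dll1. Against WT–mCherry cells of WT + WT gastruloids, which at 144 h had higher levels than WT–emiRFP for 7 members, the p53KO–emiRFP means were still higher for all 10 genes, for example 8834 against 2909 for Dll1 and 6527 against 5022 for Notch2.

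**Figure D2:**
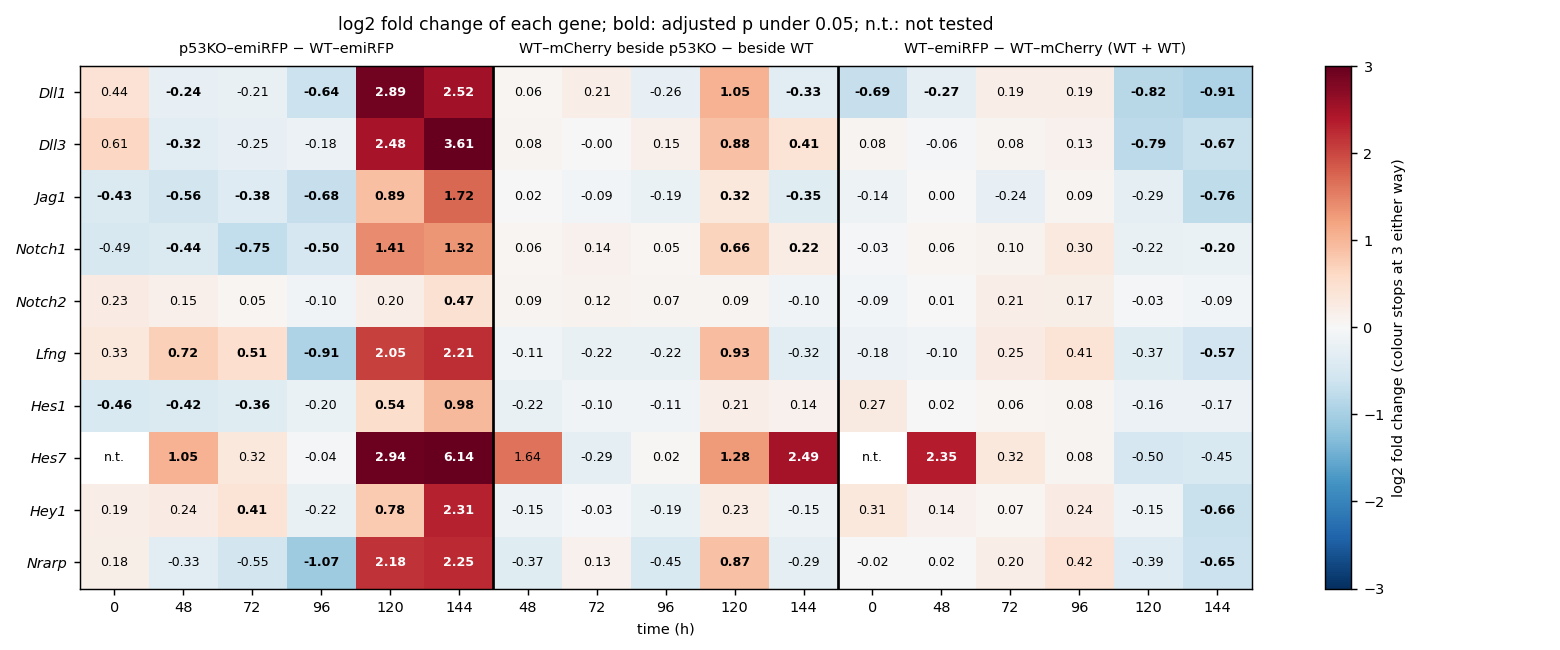
Each cell gives the log2 fold change of a gene (rows) at a time point in h (columns) for p53KO–emiRFP against WT–emiRFP, WT–mCherry beside p53KO against beside WT cells, and WT–emiRFP against WT–mCherry cells of WT + WT gastruloids; bold values passed the test. The p53KO differences turn from −0.91 to 2.05 for Lfng between 96 and 120 h, and the neighbour differences at 120 h have the same sign at a smaller size.

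The change of the p53KO difference between time points was tested directly, in a fit of all libraries. From 96 to 120 h it rose for 9 of the 10 genes, all but Notch2, with 30.8% of 21132 genes changed. The rise was 3.54 on the log2 scale for Dll1 (SE 0.21, edgeR adjusted p = 1.8e-19), 3.25 for Nrarp, 2.98 for Hes7 and 2.97 for Lfng. Notch2 had 0.30 (SE 0.14, edgeR adjusted p = 0.12), and 0.0496 with the block. From 72 to 96 h the difference fell for 2 members, Lfng and Hey1, with 11.0% of all genes changed. Without replicate 1 there was 1 call, and without replicate 2 none. From 120 to 144 h it rose for 4, Hes7, Hey1, Dll3 and Jag1 (16.9% of all genes), and with the block also for Hes1 (edgeR adjusted p = 0.028, 4647 of 21132 genes). Hes7 had the largest of these, 3.19 (SE 0.43, edgeR adjusted p = 8.3e-08), a size set in part by 7 to 8 reads per WT–emiRFP library at 144 h. Without replicates 1, 2 and 3 the 2333 genes changed from 72 to 96 h became 939, 924 and 1318, the 6501 from 96 to 120 h 5130, 4188 and 4838, and the 3575 from 120 to 144 h 1762, 2128 and 2669. Successive steps share the libraries of the time point between them.

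WT–mCherry cells are the same clone in both kinds of gastruloid, and this comparison asks how they differed beside p53KO and beside WT cells. The number of emiRFP cells seeded and the RNA of emiRFP cells in the libraries differ along with the neighbours, and cannot be told apart from them by design. Before 120 h no member passed the edgeR test, at 48, 72 or 96 h, when 0.0735%, 0.559% and 3.93% of all genes did. These shares rested on few libraries: the 13, 99 and 720 genes at these times became, without replicates 1, 2 and 3, 0, 0 and 6, then 0, 0 and 39, then 0, 24 and 579. At an unadjusted p under 0.05 there were 2 members at 48 h (Hes1 and Hes7), 2 at 72 h (Dll1 and Notch1) and 0 at 96 h, and DESeq2 called 0 at each. With the replicate block 1 member was called at 48 h, Hes1 (lower, edgeR adjusted p = 0.024), 0 at 72 h, and 6 at 96 h, when the block called 3830 of 18343 genes. The 6 were Dll1, Nrarp, Lfng, Jag1 and Hey1, lower beside p53KO cells, and Dll3, higher, with edgeR adjusted p from 3.8e-05 for Dll1 to 0.047 for Hey1. At 96 h Dll1 had 15007, 13531 and 20764 normalised read counts beside p53KO cells and 17484, 15614 and 25787 beside WT cells, lower in each same-numbered pair although the groups overlap. Hes7 was at 1 to 3 reads per library beside WT cells at 48 h, too few for a fold change.

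At 120 h 7 of the 10 genes were higher in WT–mCherry cells beside p53KO cells than beside WT cells and none was lower, where 5.95% of 18860 genes were called. That is 1123 genes, and there were 140, 609 and 385 without replicates 1, 2 and 3. The median log2 fold change of the 10 was 0.77, against −0.01 for all genes. Hes7 had 1056, 1172 and 1095 normalised read counts beside p53KO cells and 519, 385 and 461 beside WT cells. The groups did not overlap, and Hes7 differed by a log2FC of 1.28 (SE 0.13, edgeR adjusted p = 0.00027), or 2.43-fold. The ligand Dll1 had 13175, 16057 and 15781 and 8355, 6262 and 7148, a log2FC of 1.05 (SE 0.12, edgeR adjusted p = 0.00038). Lfng had 2223, 2671 and 2746 and 1527, 1223 and 1252, a log2FC of 0.93 (SE 0.13, edgeR adjusted p = 0.0013). Dll3, Nrarp, Notch1 and Jag1 were higher by 0.88, 0.87, 0.66 and 0.32 on the log2 scale (edgeR adjusted p from 0.00067 to 0.015). Hes1, Hey1 and Notch2 did not pass, with 0.21, 0.23 and 0.09. For the 7 genes called, all 3 libraries beside p53KO cells lay above all 3 beside WT cells, and below all 3 p53KO–emiRFP libraries of that time point. Jag1 did not pass when any 1 of the 3 replicates was left out (edgeR adjusted p from 0.081 to 0.14), and Notch1 did not pass without replicate 2 (edgeR adjusted p = 0.061).

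RNA of emiRFP cells moved with this comparison. At 120 h its share in the WT–mCherry libraries, estimated from H2bc14, was 7.35%, 2.91% and 6.55% in replicates 1 to 3 beside p53KO cells and 1.99%, 1.54% and 1.06% beside WT cells. The estimate from H2bc21 was 10.6%, 8.25% and 25.0% against 5.02%, 2.90% and 5.41%. After subtraction by the H2bc14 estimate, all 7 genes still passed, with Hes7 at 1.17 and Dll1 at 0.94. After subtraction by the H2bc21 estimate Hes7 was at 0.91 (edgeR adjusted p = 0.0079) and Dll1 at 0.70 (edgeR adjusted p = 0.016), while Nrarp at 0.59 and Jag1 at 0.25 missed the threshold (edgeR adjusted p = 0.053 and 0.067).

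At 144 h 3 members were higher and 2 lower beside p53KO cells, with 25.5% of 19431 genes called, 4954 genes, and 2528, 2312 and 3044 without replicates 1, 2 and 3. Hes7 had 82.9, 37.3 and 42.0 normalised read counts beside p53KO cells and 13.3, 6.21 and 9.27 beside WT cells, a log2FC of 2.49 (SE 0.34, edgeR adjusted p = 0.00032). Beside WT cells these were 8 to 15 reads per library. Dll3 and Notch1 were higher, at 0.41 and 0.22 on the log2 scale. Dll1 and Jag1 were lower, at −0.33 and −0.35. Dll1 had 2709, 2074 and 2153 against 2980.1, 2723 and 3023, and Jag1 958, 845 and 875 against 1175, 1049 and 1197. Hes7 passed whichever replicate was left out (edgeR adjusted p up to 0.0060). Without replicate 1 the count was 1 higher and 2 lower, without replicate 2 it was 1 higher and 1 lower, and without replicate 3 it was 3 higher and 0 lower. Lfng, at −0.32, did not pass (edgeR adjusted p = 0.089), but did with the replicate block (0.0056) and without the filter on low counts (0.012). The share of emiRFP RNA at 144 h, from H2bc14, was 16.8%, 2.26% and 9.10% beside p53KO cells and 2.01%, 0.0919% and 1.59% beside WT cells. From H2bc21 it was 19.6%, 2.73% and 19.4% against 6.09%, 1.42% and 6.82%. Replicate 1 had the most Hes7, and replicates 2 and 3 had similar Hes7 counts with unequal shares. After subtraction Hes7 was at 0.26 by H2bc14 and −0.28 by H2bc21 (edgeR adjusted p = 0.81 and 0.83), and Dll3 at −0.64 and −1.59 (0.15 and 0.17). Notch1 was at 0.07 and −0.04 (0.49 and 0.79). None of the 3 higher calls held under either subtraction. Dll1 and Jag1 passed as lower under both, and Lfng, Nrarp and Hey1 then passed as lower under both too, and Notch2 by H2bc21 alone (−0.21, edgeR adjusted p = 0.030), with Lfng at −0.89 and −1.36.

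**Figure D3:**
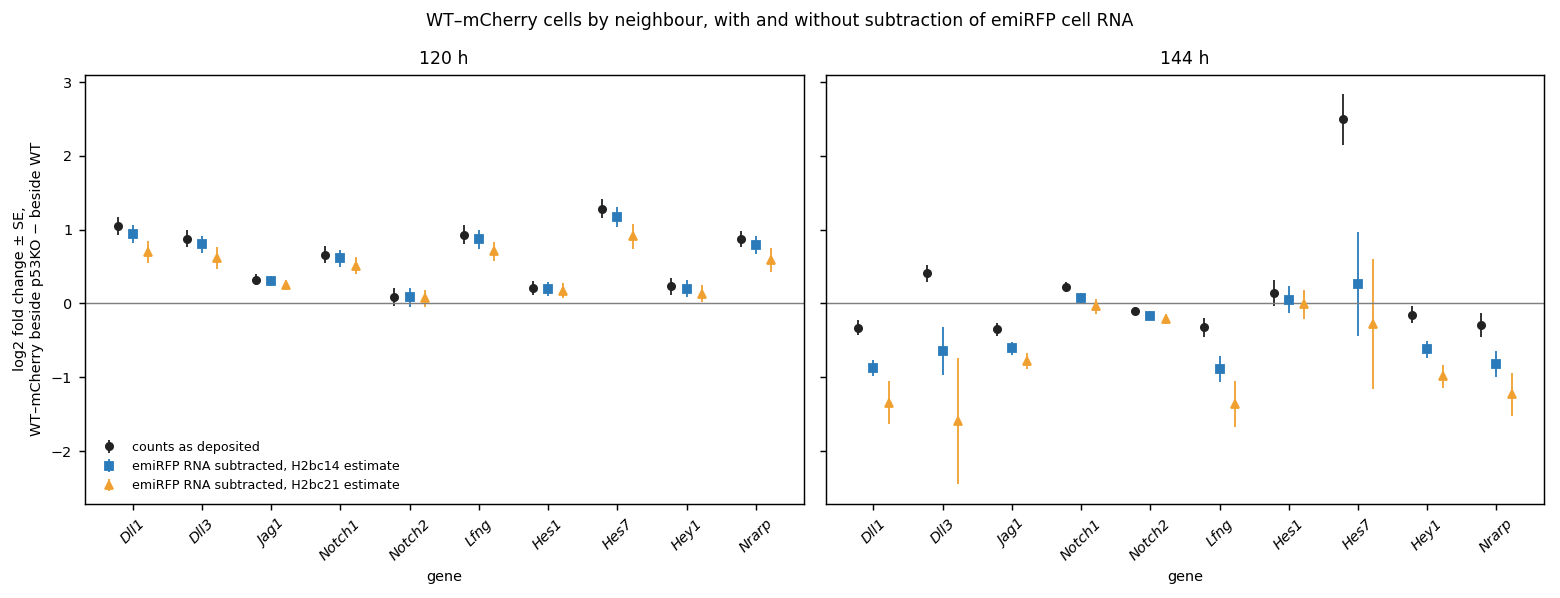
Log2 fold change (± standard error) of each gene for WT–mCherry cells by neighbour, p53KO minus WT, at 120 and 144 h, from the counts as deposited and after subtraction of emiRFP cell RNA by both estimates. At 120 h Hes7 goes from 1.28 to 1.17 and 0.91, and at 144 h from 2.49 to 0.26 and −0.28.

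Tested directly, the neighbour difference rose from 96 to 120 h for 5 members, Nrarp, Dll1, Hes7, Lfng and Dll3, when 1.15% of 21132 genes changed. The rise was 1.30 (SE 0.21, edgeR adjusted p = 0.00012) for Dll1 and 1.26 (SE 0.25, edgeR adjusted p = 0.0019) for Hes7 on the log2 scale. Without replicate 1 the count was 3, and without replicate 2 it was 1, Hes7, while the 243 genes called in all became 72, 40 and 99 without replicates 1, 2 and 3. From 120 to 144 h the difference fell for 4, Dll1, Lfng, Nrarp and Jag1 (7.62% of all genes), at −1.38 for Dll1 and −1.26 for Lfng. The count was 1, Dll1, without replicate 2, and the 1611 genes called in all became 1233, 366 and 546 without replicates 1, 2 and 3. In levels, Dll1 in WT–mCherry cells beside p53KO cells at 120 h was 91.3% of its mean at 96 h, and beside WT cells 37.0%. By 144 h these shares were 14.1% and 14.8%.

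The 2 WT clones of WT + WT gastruloids share the genotype and differ in clone, label and promoter. Their comparison gives the difference of 1 pair of clones and not the spread between clones. WT–emiRFP was lower than WT–mCherry for 1 of 9 members at 0 h (Dll1), with 11.1% of all genes called. At 48 h Hes7 was called higher and Dll1 lower (8.89% of all genes), Hes7 at 7 to 14 reads per library against 1 to 3, too few for a fold change. The main fit also held p53KO–emiRFP libraries, with 18 to 22 Hes7 reads. In a fit of only the 2 WT groups 9 of the 10 members passed the filter on low counts, and none was called. At 72 h 0 members and at 96 h 0 members passed (7.64% and 2.15% of all genes), where unadjusted p values under 0.05 numbered 2 and 0, and DESeq2 called 0 at both times. With the block 6 were higher in WT–emiRFP at 96 h (Dll1, Hey1, Lfng, Notch1, Notch2 and Nrarp), where it called 2929 of 18343 genes. At 120 h Dll1 and Dll3 were lower, at −0.82 and −0.79 on the log2 scale (1.24% of all genes), and with the block Hes7, Jag1 and Nrarp were also lower (2040 of 18860 genes). At 144 h 7 members were lower in WT–emiRFP (23.8% of all genes), from −0.20 for Notch1 to −0.91 for Dll1, whose replicates were 1754, 1523 and 1354 against 2980.1, 2723 and 3023. Without replicate 2 no member was called at 0 and 48 h, without replicate 3 none at 120 h, and at 144 h the counts without replicates 1, 2 and 3 were 6, 4 and 2. The number of all genes called moved as well without replicates 1, 2 and 3. In mES cells 2028 became 2603, 118 and 672. In gastruloids, in order of time, 1573 became 337, 363 and 980, 1354 became 167, 241 and 1410, 395 became 30, 67 and 312, 233 became 18, 307 and 34, and 4620 became 2368, 2922 and 2176. The p53KO–emiRFP differences at 120 h, 2.89 for Dll1 and 2.48 for Dll3, use the same WT–emiRFP libraries. Tissue markers moved between the clones too. At 120 h 1 of 6 presomitic and 1 of 8 neural markers were lower in WT–emiRFP, and 3 of 7 endothelial and 2 of 6 naive pluripotency markers were higher. At 144 h 6 of 7 somite (median −1.22) and 5 of 10 neural markers were lower, 5 of 6 naive pluripotency and 2 of 6 cardiac and lateral plate markers were higher, and 1 neural marker was higher. The presomitic and endothelial lists each had 1 higher and 1 lower. Their part in these differences was not tested.

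Of 45 other genes of the Notch pathway, 25 passed the test of the p53KO clone against WT–emiRFP cells at 120 h, 19 higher and 6 lower, and their median log2 fold change was 0.17. The share called is near that of all genes (51.0%). The effector genes were higher in 4 of 6 (Hes3, Hes5, Hes6 and Hey2). Hes5, a Notch target of neural progenitors, had 399 ± 59.3 against 85.7 ± 9.59 normalised read counts (mean ± SD, n = 3 each), a log2FC of 2.22 (SE 0.20, edgeR adjusted p = 5.6e-07). In the nuclear complex the 3 coactivators Maml1, Maml2 and Maml3 were higher, Maml3 with 4827 ± 344 against 1913 ± 264, a difference of 1.34 (SE 0.12, edgeR adjusted p = 3.8e-07). Rbpj, the DNA-binding partner of the receptor, was lower, 6869 ± 566 against 11868 ± 998, a difference of −0.79 (SE 0.09, edgeR adjusted p = 7.8e-06). Among the glycosyltransferases Mfng, a relative of Lfng, was higher by 0.78 (SE 0.13, edgeR adjusted p = 0.00020). The ligands Jag2 and Dll4 were lower and Dlk1, a ligand-like protein, higher, with Jag2 at −0.59 (SE 0.15, edgeR adjusted p = 0.0052). Spen, a corepressor, was lower, at −0.44 (SE 0.07, edgeR adjusted p = 8.7e-05). At 96 h, with 23.3% of all genes called (7078 of 18343 with the block), 17 of the 45 genes had differed, 6 higher and 11 lower, with the block 12 higher and 14 lower, and without replicate 1 only 1 higher and 7 lower.

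At 144 h 35 of the 45 differed, 26 higher and 9 lower, against 65.3% of all genes. Heyl, an effector expressed in somites, had 831 ± 226 against 167 ± 26.5 normalised read counts, a log2FC of 2.31 (SE 0.31, edgeR adjusted p = 1.5e-05), and Maml3 and Hes5 were at 2.36 (SE 0.14, edgeR adjusted p = 5.0e-09) and 2.34 (SE 0.43, edgeR adjusted p = 0.00026). Notch4, a receptor of endothelial cells, was lower, 611 ± 77.1 against 1262 ± 31.5, a difference of −1.05 (SE 0.09, edgeR adjusted p = 3.1e-07). It had been lower at 96 h as well, and was higher at 120 h, at 0.46 (edgeR adjusted p = 0.00084). Rbpj was lower, at −0.95 (SE 0.13, edgeR adjusted p = 1.6e-05), and so was Neurl1a, a ligase that acts on ligands, at −0.69 (SE 0.07, edgeR adjusted p = 5.6e-07). Beside p53KO cells, WT–mCherry cells differed in 4 of the 45 genes at 120 h, 3 higher and 1 lower (5.95% of all genes). Hes5 was higher there, 204 ± 50.6 against 95.2 ± 21.4, a difference of 1.11 (SE 0.20, edgeR adjusted p = 0.0053), as were Jag2 (log2 0.54, edgeR adjusted p = 0.049) and Dtx1 (log2 0.46, edgeR adjusted p = 0.011), and Spen was lower (log2 −0.25, edgeR adjusted p = 0.048). Without replicate 1 none of these 4 was called (edgeR adjusted p from 0.091 for Hes5 to 0.47 for Jag2), and without replicate 3 the list had 1 call, lower. After subtraction of emiRFP RNA, 3 were higher by H2bc14 and 2 by H2bc21, Jag2 and Dtx1, and none lower. At 144 h 18 of them differed, 6 higher and 12 lower (25.5% of all genes), with Jag2 at 0.89 (SE 0.11, edgeR adjusted p = 0.00017), Neurl1b at 0.79 (SE 0.16, edgeR adjusted p = 0.0033) and Dtx1 at 0.45 (SE 0.08, edgeR adjusted p = 0.0018) the highest. Hes5 (log2 −1.32, edgeR adjusted p = 0.032), Dlk1 (log2 −1.03, edgeR adjusted p = 0.010) and Dtx4 (log2 −0.78, edgeR adjusted p = 0.00072) were the lowest. Among genes with a mean of at least 50 normalised read counts in a group, these were the largest. Hes5 and Dlk1 did not pass without replicate 3 (edgeR adjusted p = 0.15 and 0.083), nor Hes5 without replicate 2 (0.12). The list had 5 higher and 5 lower without replicate 2 and 5 and 4 without replicate 3, and after subtraction 9 higher with 16 lower by H2bc14 and 18 lower by H2bc21. At 96 h (3.93% of all genes, 3830 of 18343 with the block) 1 had been called, and 7 higher and 5 lower with the block.

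Cyclic genes of the Wnt and FGF arms also differed at 120 h. Of 18 genes 15 passed the test in the p53KO comparison, 14 higher and 1 lower, with a median log2 fold change of 0.94, where 51.0% of all genes were called. Dkk1, a secreted Wnt inhibitor, had 390.0 ± 18.8 against 61.7 ± 23.5 normalised read counts (mean ± SD, n = 3 each), a difference of 2.67 (SE 0.25, edgeR adjusted p = 1.0e-06). Sp5, a direct Wnt target, had 2727 ± 207 against 611 ± 22.7, 2.16 (SE 0.12, edgeR adjusted p = 5.1e-09), and Efna1, an ephrin ligand, 1219 ± 24.0 against 257 ± 17.6, 2.24 (SE 0.10, edgeR adjusted p = 1.0e-09). Phlda1 was the gene that was lower, at −0.49 (SE 0.14, edgeR adjusted p = 0.0073). It did not pass without replicate 1 (edgeR adjusted p = 0.091). At 144 h (65.3% of all genes) 12 were higher and 1 lower, Spry4, an FGF pathway inhibitor, at −0.74 (SE 0.12, edgeR adjusted p = 0.00012). The largest of the higher were Sp5 with 3.68 (SE 0.18, edgeR adjusted p = 9.9e-10), Has2 with 2.53 (SE 0.16, edgeR adjusted p = 1.2e-08) and Dact1 with 2.31 (SE 0.10, edgeR adjusted p = 3.4e-10). At 96 h (23.3% of all genes, 7078 of 18343 with the block) the list had 1 gene higher and 6 lower in p53KO–emiRFP cells, with the block 3 higher and 12 lower, and without replicate 1 there was 1 higher and 3 lower.

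At 120 h 6 of the 18 were higher in WT–mCherry cells beside p53KO cells and none lower, 5 of them in the Wnt arm (Axin2, Dkk1, Nkd1, Sp5 and Tnfrsf19) and Efna1 in the FGF arm, where 5.95% of all genes were called. After subtraction of emiRFP RNA there were 6 higher by H2bc14, and 4 higher and 1 lower by H2bc21. Sp5 had 1717 ± 272 against 785 ± 105, a difference of 1.13 (SE 0.12, edgeR adjusted p = 0.00027), Dkk1 one of 1.28 (SE 0.26, edgeR adjusted p = 0.012) and Efna1 one of 0.99 (SE 0.10, edgeR adjusted p = 0.00027). Dkk1 did not pass after subtraction by H2bc21 or without replicate 1 (edgeR adjusted p = 0.48 and 0.14). At 96 h (3.93% of all genes, 3830 of 18343 with the block) 1 had been lower, and with the block 1 higher and 5 lower. At 144 h (25.5% of all genes) 5 were higher and 8 lower, and 4 higher with 10 or 11 lower after subtraction by H2bc14 or H2bc21. Sp5 (log2 1.66, edgeR adjusted p = 5.7e-05), Efna1 (log2 0.81, edgeR adjusted p = 0.0034) and Tnfrsf19 (log2 0.52, edgeR adjusted p = 0.00033) were the highest (Efna1 at an edgeR adjusted p of 0.054 without replicate 1), while Dusp6 (log2 −0.95, edgeR adjusted p = 6.5e-06), Myc (log2 −0.88, edgeR adjusted p = 0.00021) and Spry4 (log2 −0.82, edgeR adjusted p = 0.00064) were the lowest. Dusp6 and Spry4 are targets and inhibitors of FGF signalling.

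**Figure D4:**
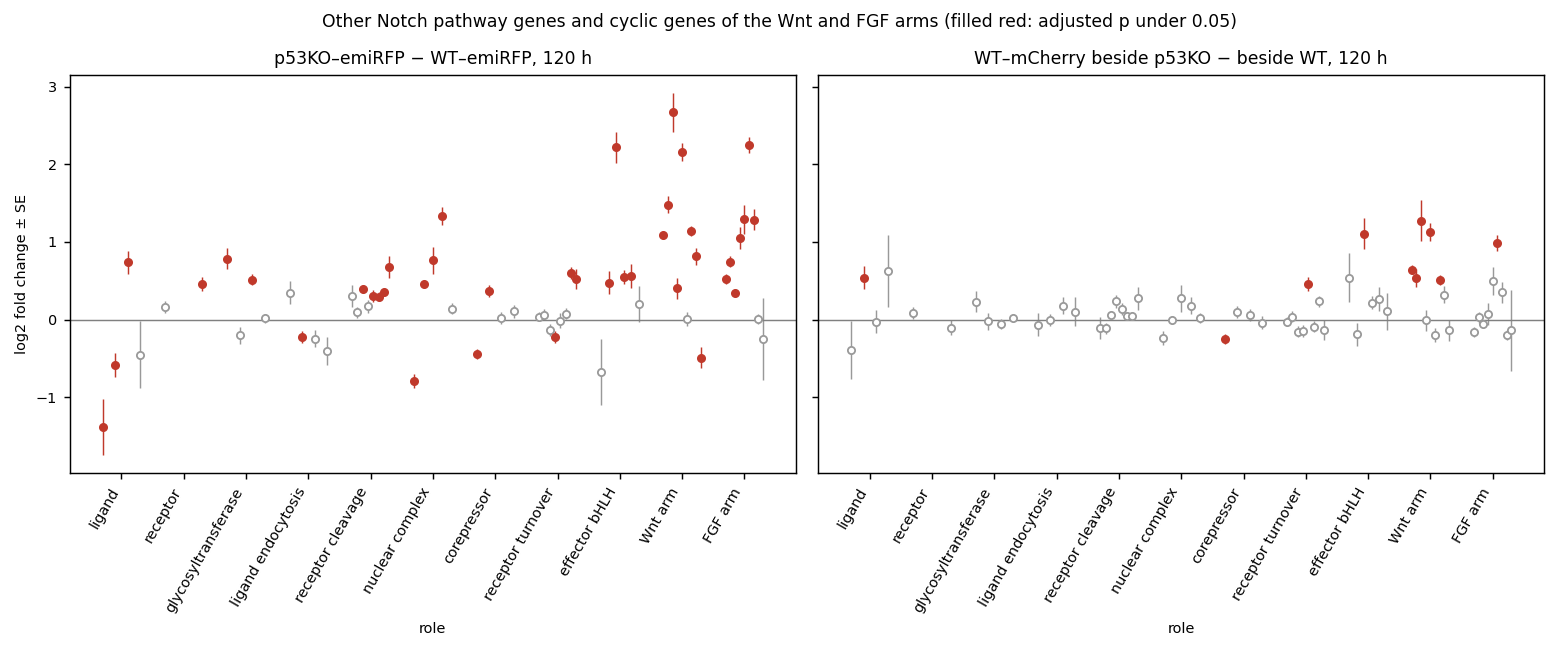
Log2 fold change (± standard error) at 120 h of the 45 other Notch pathway genes and the 18 cyclic genes, grouped by role, for p53KO–emiRFP against WT–emiRFP (left) and WT–mCherry by neighbour (right); filled red points passed the test. On the left the Wnt and FGF arms lie mostly above 0 (14 of 18 called higher), and on the right 6 of 18 were called higher.

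Markers of the tissues that gastruloids can hold moved with these genes. Their counts stand beside the shares of all genes called, 51.0% and 65.3% at 120 and 144 h for p53KO–emiRFP and 5.95% and 25.5% for WT–mCherry cells by neighbour. The 6 presomitic mesoderm markers (Tbx6, Msgn1, Mesp2, Ripply2, Rspo3 and Fgf17) summed to 24524 to 27811 normalised read counts in WT–emiRFP and 16294 to 20092 in p53KO–emiRFP libraries at 96 h. At 120 h the sums were 2328 to 2888 and 15935 to 18461, and all 6 were higher in p53KO–emiRFP cells, with a median log2 fold change of 2.33. At 144 h they were 539.9 to 596 and 3868 to 4279, and Msgn1 and Ripply2 had means under 10 in WT–emiRFP. In WT–mCherry cells at 120 h the sum was 7025 to 9558 beside p53KO and 3399.7 to 4347 beside WT cells, and all 6 were higher beside p53KO cells (median 1.11). At 144 h it was 741 to 879 against 397 to 438, again with all 6 higher. The emiRFP share stands beside this: after subtraction by H2bc14 and H2bc21, 6 and 2 of the 6 markers were still higher at 120 h (Mesp2 and Ripply2 by H2bc21), and 1 (Mesp2) and 0 at 144 h. Beside p53KO cells at 120 h 2 of 7 endothelial, 2 of 7 somite, 1 of 8 neural and 2 of 6 naive pluripotency markers were lower, and none of the endoderm and cardiac and lateral plate markers passed. Kdr, an endothelial receptor, had a mean of 223 ± 54.9 normalised read counts there against 733 ± 74.6 beside WT cells (SD, n = 3 each). Beside p53KO cells at 144 h 7 of 10 neural markers, 3 of 7 endothelial and 3 of 7 somite markers were lower and 1 somite marker was higher, and after either subtraction 7, 3 and 4 were lower. Without replicate 2 there were 4 neural markers lower. Of the other lists at 144 h, 2 of 6 cardiac and lateral plate markers and 1 of 5 endoderm markers were higher, and no naive pluripotency marker passed. The part of the share of presomitic cells in the Notch differences was not tested.

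The 7 somite markers summed to 11670.5 to 16148 in WT–emiRFP and 14575 to 21339 in p53KO–emiRFP libraries at 120 h, ranges that overlap, and 1 was higher and 2 lower in p53KO–emiRFP. At 144 h the sums were 3649 to 4957 and 20984 to 28755, and all 7 were higher. Of 7 markers of endothelial cells, in which Notch1, Hey1, Dll4 and Notch4 are known to act, 4 were lower in p53KO–emiRFP cells at 120 h and 6 at 144 h, with sums of 797 to 1103 against 5313 to 5577 at 120 h. In mES cells the sum was 4907 to 5780 for WT–emiRFP and 4302 to 5815 for p53KO–emiRFP, so it does not measure endothelial cells alone. Pecam1, on this list, serves in the study as a pluripotency surface marker. Of 10 neural markers, 8 were tested at 120 h, with 1 higher and 2 lower. Of 5 endoderm markers 4 were tested, with 1 lower, and of 6 cardiac and lateral plate markers 1 was higher and 2 lower. At 144 h the cardiac and lateral plate sums were 321 to 362 in p53KO–emiRFP and 658 to 1076 in WT–emiRFP libraries. In the same order the neural sums were 14349 to 16049 and 19145 to 22210, and the endoderm sums 363 to 553 and 380 to 700, which overlap. All 6 naive pluripotency markers were lower in p53KO–emiRFP cells at 120 and 144 h (medians −2.52 and −2.40). These shifts stand beside the Notch genes as measured, and their part in the differences was not tested.

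**Figure D5:**
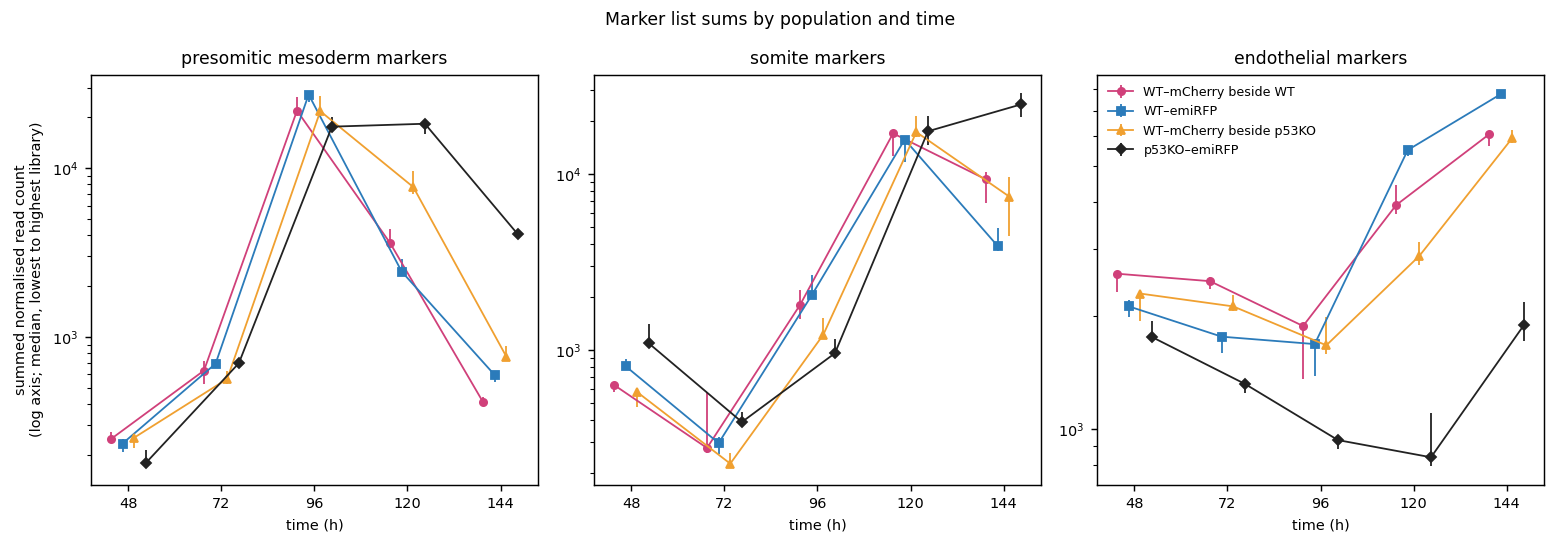
Summed normalised read count (log axis) of 3 marker lists by time in h. Symbols are the median library and bars run from the lowest to the highest of 3. The endothelial sum is not specific to endothelial cells, as it was 4907 to 5780 in WT–emiRFP mES cells. The presomitic sum of p53KO–emiRFP cells at 120 h (15935 to 18461) lies above that of WT–emiRFP cells (2328 to 2888), with WT–mCherry cells beside p53KO cells between them (7025 to 9558).

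The pattern of each member over the 23 group means was compared with those of 12907 genes by Pearson's r of log2 values, as a description. These means share libraries, depth and time course, and no p is given. The genes most like Hes7 were 9130213A22Rik (0.98), Tbx6 (0.97) and Npbwr1 (0.96), of which 9130213A22Rik overlaps Hes7 on the opposite strand and Tbx6 is a regulator of presomitic mesoderm. Those most like Lfng were Dact1 (0.97), Smoc1 (0.97) and Tril (0.96), and those most like Dll1 Inka1 (0.97), Scara3 (0.96) and Arhgap28 (0.96). Notch1 was closest to Tril (0.97), Npbwr1 (0.95) and Lrig3 (0.95), Dll3 to Chst7 (0.97), Stard13 (0.96) and Tmem114 (0.96), and Nrarp to Hmcn1 (0.98), Disp1 (0.97) and Rin2 (0.97). Hes1 was closest to Pde10a (0.98), Lmf1 (0.97) and Itprid2 (0.97), Hey1 to Epb41 (0.98), Zbtb16 (0.97) and Fbn2 (0.97), Notch2 to Dtx4 (0.96), Hmgcs1 (0.94) and Plch1 (0.93) and Jag1, with the lowest values, to A630089N07Rik (0.90), Krit1 (0.87) and C87436 (0.85). Among the members, r was 0.94 between Dll1 and Notch1, 0.93 between Dll1 and Nrarp, and 0.93 between Hes7 and Nrarp, while Notch2 and Jag1 were at 0.08.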

How the data were processed

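The deposited values are raw counts per gene symbol, which the authors made from stranded poly-A libraries: reads were trimmed with Trim Galore 0.6.7 and aligned to GRCm38.p6 with STAR 2.7.11b at default settings, and uniquely mapped reads were counted per gene. Which strand column was taken is not given in the sources used here. Groups came from the labels. The 10 genes and all gene lists were chosen with earlier results of these data known.

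Counts were analysed in R 4.3.3 with edgeR 4.0.16 (quasi-likelihood F test), with offsets from median-of-ratios size factors over all 69 libraries and genes filtered by filterByExpr. Comparisons within a time point used its 12 libraries (9 at 0 h, 8 residual degrees of freedom at the other times). WT time steps, which average the WT populations, and changes of a difference between time points used all 69 libraries (46 residual degrees of freedom). P values were adjusted by Benjamini-Hochberg over all genes tested, with a threshold of 0.05. The procedure was first run on simulated counts, drawn as independent libraries without a replicate effect and with few genes changed. That setting differs from these data, and its outcome is not given here. All 10 genes are named in the text. Of the other pathway and cyclic genes, the text names up to 3 higher and up to 3 lower genes of largest log2 fold change that passed at 120 and 144 h with a mean of at least 50 normalised counts in a group, and members of a role by count.

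The share of emiRFP cell RNA in a WT–mCherry library was estimated from the excess of H2bc14 or H2bc21 over WT–mCherry mES cells, relative to the same-numbered emiRFP library of the same gastruloids, and that share of the emiRFP library was subtracted in an alternative. Likeness of patterns was taken on log2(mean normalised count + 1) over genes reaching 200. As other alternatives DESeq2 1.42.0, TMM normalization, all genes with a count, only the compared groups, all libraries in 1 fit, leaving out each replicate number in turn, and the replicate number as a block, were tried.

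Replicates are 3 experiments separated in time, each with several gastruloids. Same-numbered libraries deviated together: the mean correlation of their deviations from the group means, over 14078 genes, was 0.20 at 0 h to 0.42 at 120 h. All 3 same-numbered pairs exceeded 0.1 in 14 of 17 comparisons. The values reported come from fits without the block, and for these 14 the blocked value is given where it changes a call of a member. The exceptions were WT–mCherry by neighbour at 120 h and the WT clones at 0 and 72 h. Replicates shared equal counts in at most 1.34% of genes. The totals of 26722541 to 72981570 counts leave genes with few reads, such as Hes7 before 96 h, imprecise. Results for some listed pathway genes are not reported here.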

Additional observations from a re-analysis of the deposited data

Results flagged for a closer look

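The following differences changed between time points by a direct test in the fit of all libraries (edgeR adjusted p under 0.05). They are given as the change of the log2 fold change.

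The difference between p53KO–emiRFP and WT–emiRFP cells fell from 72 to 96 h for Lfng (−1.43) and Hey1 (−0.63). From 96 to 120 h it rose for Dll1 (3.54), Nrarp (3.25), Hes7 (2.98), Lfng (2.97), Dll3 (2.66), Notch1 (1.91), Jag1 (1.58), Hey1 (1.00) and Hes1 (0.73). From 120 to 144 h it rose for Hes7 (3.19), Hey1 (1.53), Dll3 (1.13) and Jag1 (0.82). The Hes7 value is imprecise, as it rests on 7 to 8 reads per WT–emiRFP library at 144 h.

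The difference between WT–mCherry cells beside p53KO and beside WT cells rose from 96 to 120 h for Nrarp (1.32), Dll1 (1.30), Hes7 (1.26), Lfng (1.15) and Dll3 (0.73). From 120 to 144 h it fell for Dll1 (−1.38), Lfng (−1.26), Nrarp (−1.17) and Jag1 (−0.68). The estimated share of emiRFP cell RNA in the libraries beside p53KO cells also moved between these times, and its part in these changes was not tested.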

How the results depend on the processing

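Of 268 pairs of gene and comparison tested, 130 passed the threshold. Their values, and those of the other pairs outside the comparison of WT clones, were recomputed under the alternatives. Of 1887 values, 1711 stayed on their side of the threshold with no called value changing sign, 111 were no longer past it, 61 came past it, and 4 that had passed changed sign and no longer passed. The 4 were in WT–mCherry cells by neighbour at 144 h after subtraction of emiRFP cell RNA, Dll3 (−0.64 by H2bc14 and −1.59 by H2bc21), Hes7 (−0.28 by H2bc21) and Notch1 (−0.040 by H2bc21). Pairs that had not passed changed sign in 41 of 1252 alternative values.

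Counts of members called moved by over 1.5 times as follows, and the cause was not tested. For p53KO against WT–emiRFP, the count at 0 h was 2, and 1 with TMM or only the compared groups and 4 with all libraries in 1 fit or no filter, at 48 h 7 and 4 with all libraries, and at 96 h 5, 3 with DESeq2 and 8 with the replicate block. For WT–mCherry by neighbour it was 0 at 48 h and 1 with the block, 0 at 96 h, 2 without the filter and 6 with the block, and 5 at 144 h and 2 with all libraries. For the WT clones it was 1 at 0 h and 0 with only the compared groups, and 2 at 48 h, 1 with DESeq2 or TMM and 0 with all libraries or only the compared groups. It was 0 at 72 h and 1 without the filter or with the block, 0 at 96 h, 4 without the filter and 6 with the block, and 2 at 120 h, 5 with DESeq2 or the block and 7 without the filter. For the neighbour step from 120 to 144 h it was 4, and 7 without the filter.

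Without 1 replicate the counts ranged from 0 to 5, 2 to 5, 1 to 5 and 0 to 6 for p53KO at 0, 48, 72 and 96 h, from 2 to 3 for neighbours at 144 h, and from 0 to 1, 0 to 1, 0 to 1, 0 to 1, 0 to 3 and 2 to 6 for the WT clones from 0 to 144 h. They ranged from 0 to 2 for the p53KO step from 72 to 96 h, 1 to 4 for the neighbour step from 96 to 120 h and 1 to 4 for that from 120 to 144 h. The counts for p53KO at 120 and 144 h stayed at 9 and 10 in each case.

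For neighbours at 120 h replicate 1 did not exceed 0.1 (r = 0.072, 0.63 and 0.58 for replicates 1 to 3). There the block gave 9 members (7 without it), 11 of the 45 other pathway genes (4) and 12 of the 18 cyclic genes (6). For the neighbour step from 96 to 120 h, where pairing was not checked by comparison, it gave 7 members (5). For all genes the block moved the count for neighbours from 720 to 3830 at 96 h and from 1123 to 3826 at 120 h. With only the compared groups and without the filter it was 275 and 1507 at 96 h and 531 and 1865 at 120 h. For the WT clones at 120 h the same settings moved it from 233 to 66 and 844. With all libraries in 1 fit it went at 0 h from 1123 to 2909 for p53KO and from 2028 to 5072 for the WT clones.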
